A study of Mus musculus with 2 samples.

Results

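Heat shock proteins and their J-domain partners are the chaperones that fold new proteins, refold damaged ones and pass lost ones on for degradation. The members described here are the protein-coding genes of mouse whose symbols begin with Hspa, Hspb, Hsp90, Hspd, Hspe, Hsph, Dnaja, Dnajb or Dnajc, which gave 74 genes on 19 chromosomes out of 21911 protein-coding genes. They fall into 13 Hspa genes (the Hsp70 family), 10 Hspb genes (mostly small heat shock proteins), 3 Hsp90 genes, the 3 genes Hspd1, Hspe1 and Hsph1, 4 Dnaja genes, 13 Dnajb genes and 28 Dnajc genes. Hspbap1, Hspbp1 and Hspb11 were kept because their symbols meet the rule, although their names come from binding partners or sequence likeness and they are not chaperones of these families.

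The study measured chromatin accessibility by DNase-seq, in which DNase I cuts open DNA and the cut sites are sequenced, in gastrocnemius, the large calf muscle. It has 1 group of 2 libraries, labelled as biological replicates 1 and 2, from male B6CASTF1/J mice (an F1 hybrid strain) aged 14 days, and the labels name no treatment. The sequences printed below are those of the reference genome, and the alleles of the second parental strain were not analysed here. Both libraries name the same donor entry and a biosample of "3x Males", so the spread between them may be partly technical, and it is unknown whether animals were pooled. With a single group and no contrast, no test between conditions was possible, and every value below is a description of these libraries beside all protein-coding genes.

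Hsp70 binds exposed hydrophobic stretches of a client protein, a J-domain protein brings the client and triggers ATP hydrolysis, and a nucleotide exchange factor such as Hsph1 resets the cycle. Hsp90 acts later on near-native clients, the chaperonin Hspd1 with its lid Hspe1 folds proteins in the mitochondrial matrix, and small heat shock proteins hold unfolded proteins without ATP. The transcription factor Hsf1 raises many of these genes under heat or proteotoxic stress by binding heat shock elements, and stress in the endoplasmic reticulum raises Hspa5, Hsp90b1, Dnajc3 and others through ATF6. In skeletal muscle several small heat shock proteins bind the Z-disc and the filaments of the sarcomere.

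The authors deposited 82498 peaks for replicate 1 and 88198 for replicate 2 in the shorter of the 2 peak lists of each library, and 320456 and 384435 footprints, which are short stretches inside open DNA that are protected from cutting. Sequencing depth is unknown. The labelled tissue was checked with marker genes. All 12 skeletal muscle markers had a promoter peak in both libraries, including Acta1, Ckm, Des and Ryr1, and so did 3 of 4 markers of endothelium, 3 of 4 of fibroblasts, 2 of 4 of Schwann cells and 1 of 4 of macrophages. None of the 4 liver and 4 erythroid markers did. Over all protein-coding genes 61.7% had a promoter peak in both libraries. Counts out of 4 near that share do not show that a cell type was present. Which cells gave a member's signal was not tested. In whole tissue, more cells of a type and a more open site in each cell cannot be told apart.

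The short sequences that carry the stress response were searched first, in the RefSeq promoter table (build GRCm38.p6, 250 bases before to 50 after a start), which held 60 of the 74 members. Dnajc2, Dnajc5, Dnajc5b, Dnajc11, Dnajc12, Dnajc18, Dnajc22, Dnajc30, Hsp90aa1, Hsp90ab1, Hspa8, Hspa9, Hspa13 and Hspb2 were not in it. The heat shock element was taken as GAANNTTCNNGAA, 3 alternating repeats of the unit bound by one Hsf1 subunit, on either strand. It stood without a mismatch in 4 of 60 members, against 0.575% of 16522 genes in the table and 0.501% of its 20150 promoters. These 4 members were Hspd1, Hspe1, Hsph1 and Dnajb6, which encode the mitochondrial chaperonin, its lid, the exchange factor Hsp110 and a muscle-linked J-domain protein. Each is shown on the strand of its gene with the matching bases in capitals. In the bidirectional promoter of Hspd1 and Hspe1 a pair of overlapping elements makes 1 run of 18 bases, shown for Hspe1 (chr1:55088039-55088096, plus strand). The Hsph1 element (chr5:149636280-149636308, minus strand) lies 15 to 27 bases after the start, and that of Dnajb6 (chr5:29735832-29735884, plus strand) at positions -46 to -34 from the nearer of its starts. Positions are counted from the start base at 0, and negative ones lie before it.
Hspe1: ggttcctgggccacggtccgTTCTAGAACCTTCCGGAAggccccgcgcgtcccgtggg
Hsph1: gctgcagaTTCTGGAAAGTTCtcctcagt
Dnajb6: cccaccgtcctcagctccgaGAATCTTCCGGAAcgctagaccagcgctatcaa

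An overlap of 1 base was enough to count an element as touched by a footprint. None of these elements was touched in both libraries, so the count was 0 of 60 members, against 0.0545% of genes. The Hspe1 and Hspd1 elements stood inside the peak of both libraries, and the nearest footprint lay 2 bases away in replicate 1 and 1 base away in replicate 2. The Hsph1 element lay outside the peak of replicate 1 and inside that of replicate 2, and its nearest footprints were 25 and 18 bases off. The Dnajb6 element shared 6 of its 13 bases with a footprint in replicate 2 and was 4 bases from one in replicate 1. A footprint is called from the pattern of cuts and needs depth, so the lack of one does not show that the site was free.

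With at most 1 mismatch an element stood in 14 of 60 members, against 7.46% of genes, and was touched by a footprint in both libraries in 3 members, against 0.654%. Those 3 were Dnaja1, a main partner of Hsc70, Dnajb6 again, through an overlapping element, and Hspb1, which encodes Hsp27. In all 3 the footprints reached only the edge of the element: 1 of 13 bases at Hspb1 in both libraries, 3 at Dnaja1 in each, at opposite ends, and 2 and 1 at Dnajb6 in replicates 1 and 2. No footprint covered a whole promoter element of a member. The promoters of Hspa1a and Hspa1b, the strongly heat-inducible Hsp70 pair, carried 2 overlapping imperfect elements in the same 18 bases, at positions -114 to -97, with no footprint over them in either library at Hspa1a and one over 7 bases in replicate 1 only at Hspa1b. The imperfect elements are shown in capitals for Dnaja1 (chr4:40722319-40722371, plus strand), Hspb1 (chr5:135887782-135887834, plus strand) and Hspa1a (chr17:34972233-34972290, minus strand), since those of Dnaja1 and Hspb1 touched footprints and Hspa1a is the classic inducible gene.
Dnaja1: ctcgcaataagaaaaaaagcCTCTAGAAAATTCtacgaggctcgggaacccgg
Hspb1: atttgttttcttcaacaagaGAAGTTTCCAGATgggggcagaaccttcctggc
Hspa1a: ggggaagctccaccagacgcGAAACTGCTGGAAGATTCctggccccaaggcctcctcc

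Within 1 kb of any annotated start, perfect elements were found for 10 of the 60 members, against 4.55% of genes. The 6 further members were Dnaja1, Dnajb2, Dnajb5, Dnajc3, Hsp90b1 and Hspb1. The Dnaja1 element, GAACTTTCCAGAA at chr4:40722534-40722546 and centred 60 bases after the start, lay in a peak in both libraries and shared 11 of 13 bases with footprints in replicate 1 and 2 in replicate 2. The other 5, at 257 (Hsp90b1), 897 (Hspb1), -330 (Dnajb5), -710 (Dnajb2) and -959 (Dnajc3), lay outside all peaks and footprints of both libraries.

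The endoplasmic reticulum stress element, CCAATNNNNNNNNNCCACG, joins a CCAAT box bound by NF-Y to the site of ATF6. It stood in 3 of 60 members against 0.169% of genes, and the 3 were Hspa5, Hsp90b1 and Dnajc3, the Hsp70 of the endoplasmic reticulum, its Hsp90 and one of its J-domain partners. Among the 28 genes with the element were also Calr, Canx, Pdia6 and Creld2 from the list of other chaperone-system genes. The element is in capitals below, at positions -65 to -47 of Hspa5 (chr2:34772005-34772063, plus strand), -105 to -87 of Dnajc3 (chr14:118937807-118937865, plus strand) and -212 to -194 of Hsp90b1 (chr10:86705618-86705676, minus strand).
Hspa5: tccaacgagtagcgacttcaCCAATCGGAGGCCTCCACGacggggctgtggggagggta
Dnajc3: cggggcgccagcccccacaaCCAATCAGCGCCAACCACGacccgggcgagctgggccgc
Hsp90b1: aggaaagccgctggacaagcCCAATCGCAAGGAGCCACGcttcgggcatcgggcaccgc

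The Dnajc3 element overlapped a peak in both libraries, and footprints covered 8 of its 19 bases in each, of which 2 were the same bases. At Hsp90b1 the distal of the 2 elements shared 7 bases with a footprint in replicate 1 and was 10 bases from one in replicate 2, and the proximal one, at -107 to -89, had none in either. The Hspa5 element had no footprint, with the nearest 10 and 13 bases away, and lay inside the peak of replicate 1 only. Of all 28 genes with the element, 6 had it touched by a footprint in both libraries.

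**Figure D1:**
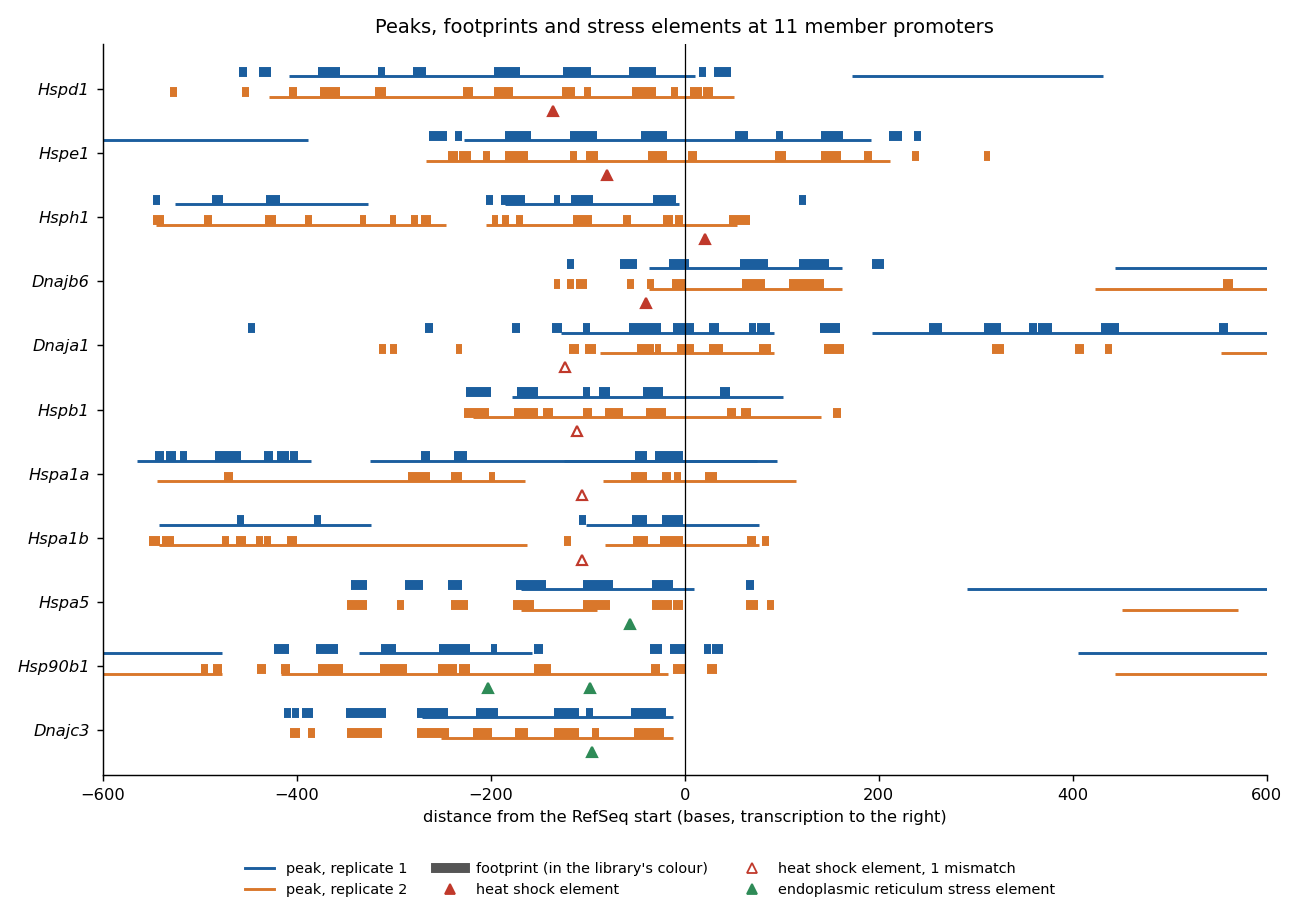
Peaks (lines), footprints (blocks) and stress elements (triangles) around the RefSeq start of 11 members, by distance from it in bases, in replicate 1 (blue) and replicate 2 (orange). Filled red triangles are perfect heat shock elements, open ones have 1 mismatch, and green ones are endoplasmic reticulum stress elements; the triangle of Hspe1 sits between footprints in both libraries, and that of Dnajc3 meets one in both.

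Promoters of the members were open almost without exception. Each gene was given a promoter reaching 1 kb up- and downstream of its annotated starts, the promoter's signal was the authors' value of the strongest peak in it, and a gene counted as open with a peak in both libraries. By that rule 70 of 74 members were open (94.6%, Wilson 95% interval 86.9% to 97.9%, over genes and not over animals), and the share over all protein-coding genes was 61.7%. No member was open in 1 library only. All 13 Hspa, 10 Hspb, 3 Hsp90 and 4 Dnaja genes and Hspd1, Hspe1 and Hsph1 were open, as were 10 of 13 Dnajb and 27 of 28 Dnajc genes.

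The 4 closed promoters were those of Dnajb7, Dnajb8, Dnajb13 and Dnajc5g, which encode J-domain proteins known mainly from testis. Neither the longer nor the shorter peak list of either library had a peak there, none had a footprint in its promoter, and the deposited track of bases with significant cutting listed no base in their windows. Of the 9 members with testis-biased expression as background, 5 were open: Hspa2, Hspa1l, Hspb9, Dnajb3 and Dnajc5b. Hspa2, an Hsp70 needed for meiosis in the male and also present elsewhere, stood apart with signals of 18.8 in replicate 1 and 10.3 in replicate 2. The other 4 read between 2.37 and 3.63 in replicate 1 and between 1.52 and 3.67 in replicate 2.

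Signal levels differed widely among open members. They ran from 1.38 to 24.4 with a median of 9.47 in replicate 1, and from 0.757 to 10.7 with a median of 4.66 in replicate 2, while the median over all open genes was 6.15 and 3.51. The scale of the signal is unknown, so genes were ranked within each library and the 2 percentiles averaged. A gene with no peak takes a percentile of 18.3 because all such genes tie. The members' median percentile was 79.3, against 50.1 for all protein-coding genes, and was 78.8 in replicate 1 and 77.4 in replicate 2. At a mean percentile of 90 or more stood 20 of 74 members, against 9.50% of all genes.

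**Figure D2:**
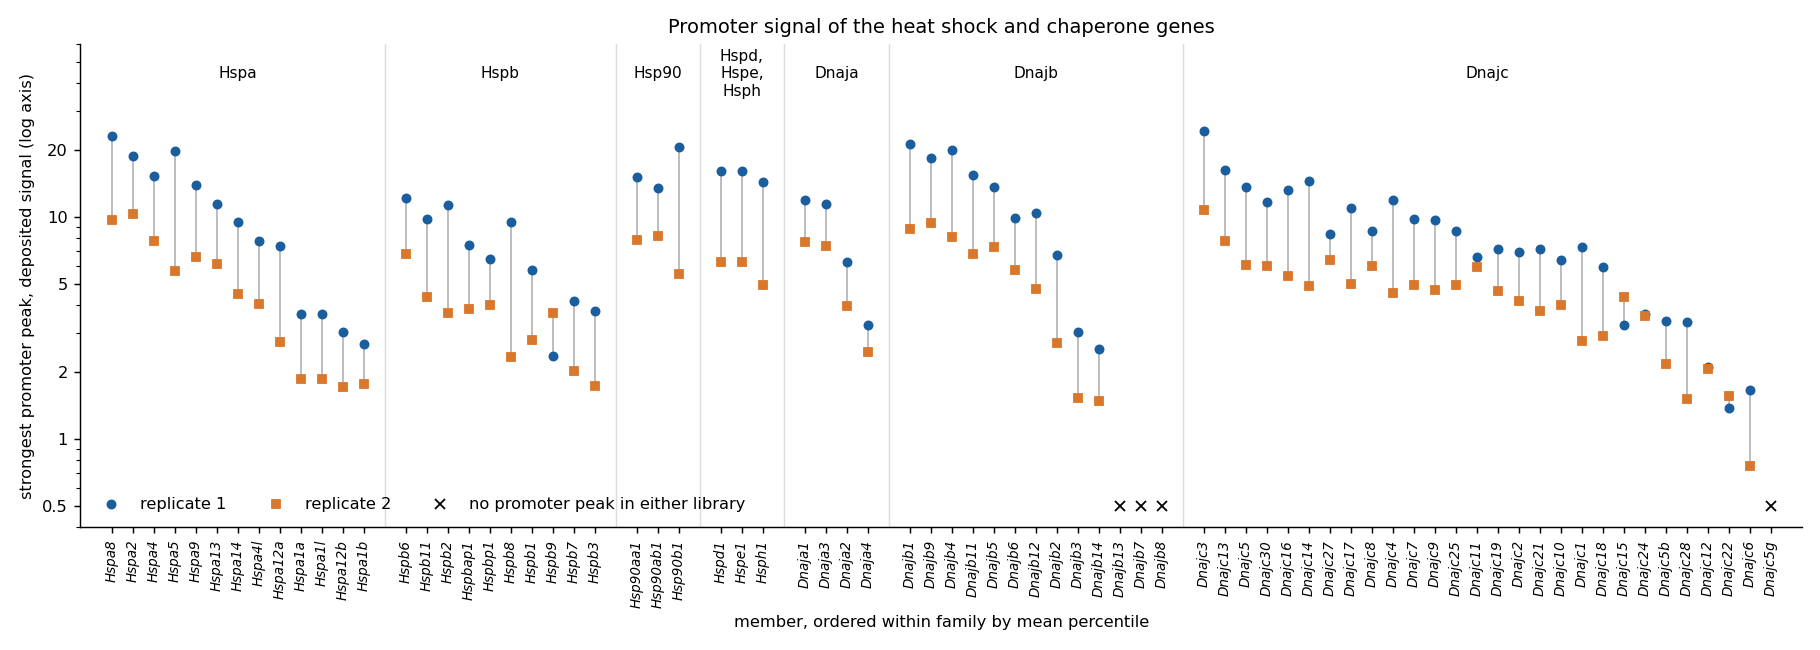
Deposited signal (log axis) of the strongest promoter peak of each of the 74 members in replicate 1 (blue circles) and replicate 2 (orange squares), by family and in order of mean percentile. Crosses mark the 4 members with no promoter peak in either library; most lines run downwards from replicate 1 to replicate 2, and Hspb9, Dnajc15 and Dnajc22 are the exceptions.

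The constitutive cytosolic chaperones, 14 members, had a median percentile of 83.1. Hspa8, the housekeeping Hsp70 Hsc70, had signals of 23.2 and 9.66 in replicates 1 and 2, a percentile of 99.2 ± 0.662 (SD, n = 2). Hsp90ab1, the constitutive Hsp90, read 13.5 and 8.19. Both had a mean percentile above 90. Hspa4, an exchange factor of the Hsp110 group, read 15.3 and 7.79. Dnaja1 read 11.9 and 7.73, a percentile of 91.7 ± 4.91 (SD, n = 2). The muscle-linked J-domain genes Dnajb4, Dnajb5 and Dnajb6 had mean percentiles of 97.5, 92.8 and 84.4; the peak of Dnajb4 also lies within 1 kb of a start of Fubp1.

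The heat-inducible cytosolic genes, 8 members, ranged widely around a median percentile of 70.0. Dnajb1, which encodes the inducible partner Hsp40, read 21.4 and 8.85 and Hsp90aa1, the inducible Hsp90, 15.1 and 7.84, with percentiles of 98.5 ± 1.03 and 95.02 ± 0.723 (SD, n = 2). Both were above 90 in the mean of the libraries. Hsph1 read 14.4 and 4.95, so its percentile of 87.1 ± 8.78 (SD, n = 2) moved between libraries. Hspa1a read 3.63 and 1.85 and Hspa1b 2.66 and 1.77, with percentiles of 56.1 and 53.2, near the median of all genes. Between these lay Hspa4l, with 7.79 and 4.03 at a percentile of 74.8. Hspb1 read 5.79 and 2.78, at a percentile of 65.2, and Dnaja4 3.26 and 2.46. Hspa1a and Hspa1b were thus open in both libraries, and had 11 and 8, and 7 and 13, footprints within 1 kb of a start in replicates 1 and 2.

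Hspa1a and Hspa1b are near copies of each other, and 296 of 300 bases of their promoters in the table were identical, with 201 in a row from position -203 to -3. How reads that map to both were treated by the authors is not stated. Their values are therefore uncertain. In replicate 2 both genes had a gap between peaks inside the identical stretch: one peak ended at position -165 and the next began at -84 at Hspa1a, and at -163 and -82 at Hspa1b. In replicate 1 a peak at Hspa1a ran from -324 to 75, across the whole stretch. At Hspa1b in replicate 1 one peak ended at -323 and the next began at -102. The strongest peak of Hspa1a is also the promoter peak of Hspa1l, its neighbour on the opposite strand.

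Chaperones of the endoplasmic reticulum, 12 members, had a median percentile of 87.7. Dnajc3, which restrains the kinase PERK and assists Hspa5, had the highest signals of all members in both libraries, 24.4 and 10.7, a percentile of 99.6 ± 0.190 (SD, n = 2). Dnajb9, which recruits Hspa5 to the sensor IRE1, read 18.4 and 9.34, and Dnajb11 15.3 and 6.79. The lowest of this class, Dnajb14, read 2.54 and 1.49. Hspa5 read 19.7 and 5.67 and Hsp90b1 20.5 and 5.52. These 2 chaperones stood near the top in replicate 1 and lower in replicate 2, and their percentiles of 92.1 ± 9.17 and 91.8 ± 10.2 (SD, n = 2) have a wide spread.

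Mitochondrial chaperones, 8 members, had a median percentile of 89.1, in which the peak shared by Hspd1 and Hspe1 counts for both genes. The class is therefore not ranked above that of the endoplasmic reticulum, at 87.7. Hspd1 and Hspe1 share 1 promoter peak, with a signal of 16.0 in replicate 1 and 6.29 in replicate 2. Hspa9, the matrix Hsp70, read 14.0 and 6.62, from a peak centred at -404 in replicate 1 and at -444 in replicate 2. Its partner Dnaja3 read 11.4 and 7.40. Dnajc15 and Dnajc19, J-domain proteins at the import motor, were lower: Dnajc15 read 3.26 and 4.36, one of 3 members with the higher value in replicate 2, and Dnajc19 7.13 and 4.65.

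The 5 small heat shock proteins of muscle and heart, Hspb2, Hspb3, Hspb6, Hspb7 and Hspb8, had a median percentile of 70.4, but much of the signal near 4 of them lay away from their own starts. Hspb6, a phosphoprotein of the contractile apparatus, read 12.2 and 6.82, yet that peak was centred at -888, within 1 kb of a start of Proser3. Hspb2 read 11.3 and 3.67 from a peak centred at -586 in replicate 1 and -596 in replicate 2, which is the promoter peak of Cryab, the small heat shock protein alpha B-crystallin. The peaks of Hspb3 and Hspb7 were centred 416 to 426 and 852 to 872 bases inside the gene. Hspb8, a partner of Bag3 in the removal of damaged filament proteins, had its peak across the start, at 9.45 and 2.34.

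When peaks had to lie within 250 bases of a start, the mean percentile fell from 90.4 to 54.2 for Hspb6 and from 78.6 to 51.1 for Hspb2. For Hspb3 it fell from 55.9 to 42.9, and Hspb7 had no such peak in either library. Hspb8 kept its strongest peak. At the start itself Hspb6 read 2.97 and 1.31, Hspb2 2.07 and 1.16 and Hspb3 0.847 and 0.509. The other 5 members whose signal changed with this window were Hspa1a, Hspa9, Hspb9, Dnajc5b and Dnajc7. Dnajc7 had no peak there in either library, Dnajc5b one of 0.821 in replicate 2 only, and Hspa9 had one of 4.72 in replicate 1 only.

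**Figure D3:**
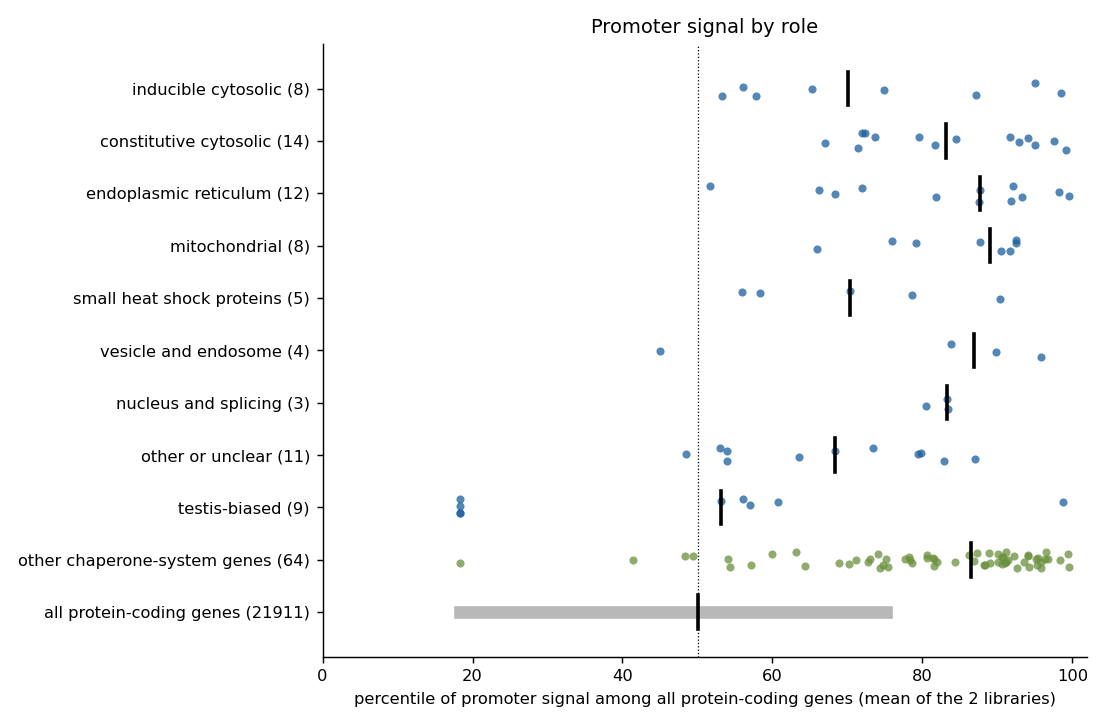
Mean percentile of promoter signal of each member (blue points) by role, of 64 other chaperone-system genes (green points) and, as a grey bar, the quartiles of all 21911 protein-coding genes; black marks are medians and the dotted line is the median of all genes. The medians run from 53.1 for testis-biased genes to 89.1 for mitochondrial chaperones, where the shared peak of Hspd1 and Hspe1 counts for both genes.

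Members of the remaining classes were open in all cases. The 4 genes of vesicles and endosomes included Dnajc13, which acts on endosomes with a percentile of 95.8, Dnajc5, the synaptic vesicle protein CSP-alpha, at 89.9, and Dnajc6, the neuronal clathrin-uncoating auxilin, which had the lowest open value of all members in replicate 2, at 1.66 and 0.757. The 3 nuclear genes Dnajc8, Dnajc9 and Dnajc17 stood between 80.5 and 83.4. Of 11 genes with other or unclear roles the highest was Dnajc14, at 14.5 and 4.90, and the lowest Dnajc22, at 1.38 and 1.55. The roles were assigned from textbook knowledge with the values already known.

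The 2 libraries ranked open members alike. Spearman's correlation across the 70 open members was 0.883, beside 0.923 across all 13512 open genes, and genes are not independent replicates. Replicate 1 read higher at 67 of 70. Over all open genes the replicate 1 signal was in the median 1.83 times that of replicate 2, and 65 of 70 members lay within 2-fold of that ratio, against 96.3% of all open genes. On the log2 scale relative to that median, the ratio was highest for Hspb8 (1.14), Hsp90b1 (1.02) and Hspa5 (0.92) and lowest for Hspb9 (-1.51), Dnajc15 (-1.29) and Dnajc22 (-1.04).

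Skeletal muscle markers moved the same way as Hspb8. Their median ratio was 3.32 and 11 of 12 were above the median ratio of all open genes, among them Des at 4.39, Acta1 at 3.87 and Ckm at 3.60, while none of the 9 open markers of endothelium, fibroblasts, macrophages and Schwann cells was above it. Hspb2, at a log2 value of 0.75, lay on the same side, and Hspb6, at -0.03, did not. Hspb3, at 0.25, and Hspb7, at 0.17, were nearer to the median of open members, 0.10. Hsp90b1 (1.02) and Hspa5 (0.92), chaperones of the endoplasmic reticulum, lay above Hspb2. The part of a different muscle content of the 2 libraries in the values of Hspb8 and Hspb2 was not tested. Hspb9, whose strongest peak is centred about 830 bases after its start, read 2.37 in replicate 1 and 3.67 in replicate 2.

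**Figure D4:**
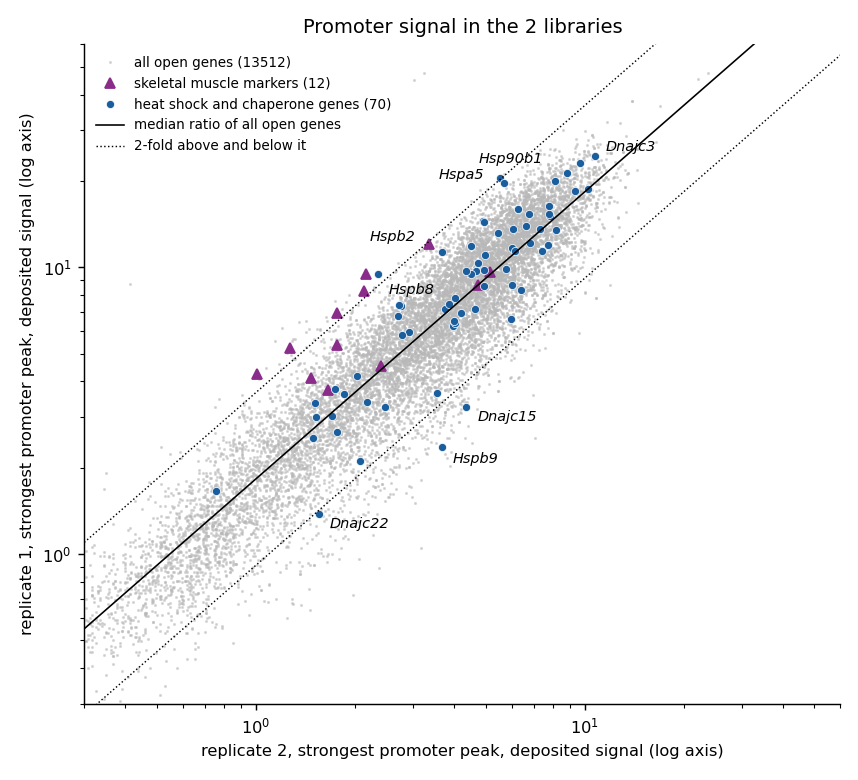
Strongest promoter peak in replicate 1 against replicate 2 (both axes log) for 13512 open genes (grey), 70 open members (blue) and 12 skeletal muscle markers (purple triangles); the solid line is the median ratio of 1.83 and the dotted lines are 2-fold above and below it. Most members follow the line, and 11 of 12 muscle markers lie above it.

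Sequence composition went with openness. The ratio of observed to expected CpG in the promoter had a median of 0.835 over the 60 members in the table and 0.631 over all 16522 genes. Genes were put into 3 classes of nearly equal size by that ratio. In the highest class all 35 members were open, against 95.6% of genes, and their median percentile was 84.4 against 76.9. In the middle class 20 of 22 members were open, against 79.0%, with medians of 58.4 and 57.6. In the lowest class 1 of 3 was open, Hspb7, against 16.8%, and Dnajb7 and Dnajb8 were closed. The Hspb7 peak was centred 852 to 872 bases inside the gene, outside the bases that gave the ratio. Within 250 bases of its start Hspb7 had no peak in either library. In the highest and middle classes the members' shares were thus near or somewhat above the background. The lowest class held too few members to be read.

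Common promoter motifs were counted on both strands. The GC box GGGCGG, bound by Sp1, stood in 44 of 60 members against 51.0% of genes, and among open promoters in 78.6% of members against 69.8% of genes. The CCAAT box stood in 25 of 60 members against 42.1%, which is the background share, and it is part of the stress element above. A TATAAA box stood in 4 of 60, in Dnajc19, Dnajc24, Hspb3 and Hspb6, against 14.3%. Among open promoters the shares were closer, 7.14% of members against 8.55% of genes. The muscle E-box CAGCTG stood in 12 of 60 against 17.7%, and a MEF2 site in 1, Hspb3, against 0.575%. Such matches describe letters and not binding.

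All 70 open members had a promoter footprint in both libraries, as did 99.5% of all open genes. Over all members that was 70 of 74, against 64.4% of all genes, and this contrast repeats that of the open promoters. The median number per open promoter was 9, against 8 over all open genes. Dnajb5, a J-domain protein that binds the histone deacetylase Hdac4, had the most, 26 in replicate 1 and 24 in replicate 2. Dnajc12 had 3 in both, the fewest in the sum of both libraries together with Dnajb3, at 4 and 2. Footprints were counted around every annotated start, of which Dnajb5 has 4 and Dnajc12 and Dnajb3 have 1 each, so the lengths searched differ. Strongest peaks of the open members had a median width of 213 and 240 bases, spanned an annotated start in 51 and 50 of 70 and had a median centre at -28 and -31 from it. In 19 of 70 members that peak also lay within 1 kb of a start of another coding gene, as for Hspd1 and Hspe1, Dnajc2 and Psmc2, or Dnajb11 and Tbccd1, and such a signal cannot be given to either gene. The shares of peaks that span a start or lie near another gene's start were not computed over all open genes. These counts are therefore not read as a trait of the members.

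Distal regions, merged regions with a peak in both libraries outside all promoter windows, were then counted within 50 kb of the members' starts. At least 1 was found for 61 of 74 members, against 73.4% of all genes, and the median was 3 per member against 2. The 239 different regions gave 242 pairs with members, and in 83 pairs the member had the nearest start of any coding gene. By annotation 47 regions touched an exon, 110 lay in an intron and 82 were intergenic. Their median signal was 1.67 in replicate 1 and 1.18 in replicate 2, beside 1.28 and 0.936 over all 44392 regions, and 96.7% had a footprint in both libraries, beside 96.1%.

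Families differed in these counts. All 10 Hspb genes had a distal region, with a mean of 5.70 per gene against 2.77 over all genes. Hspd1, Hspe1 and Hsph1 had none, nor did Hspa9, Dnajc15 and Dnajc19. The mitochondrial class of 8 members had a median of 0 and a mean of 2. Its 3 members with regions were Dnajc11 with 8, and Dnaja3 and Dnajc30 with 4 each. Dnaja1, Dnajb6, Dnajb9, Hspa2, Hspa4l, Hspa13 and Dnajc24 were the other members with none. Among them Dnajb9 and Hspa2 had promoters above a percentile of 98. Their counts of 0 rest on the peak lists used: with the longer lists Hspa2 had 5 regions and Dnajb9 had 1, and in replicate 1 or 2 alone Hspa2 had 4 or 2 and Dnajb9 0 or 2. With the longer lists Hsph1 had 3, Hspa9 had 2, and Dnaja1 and Dnajb6 had 1 each. Hspd1 and Hspe1, which share 1 locus, had 2 each there. Dnajc15, Dnajc19, Hspa4l, Hspa13 and Dnajc24 had 0 in the longer lists too.

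Hspb1 had the most, 11, and for 10 of them its start was the nearest. They lay between -32569 and 26332 from the start. The strongest by mean rank, chr5:135903981-135904180, 16062 bases after the start and intergenic, read 3.94 in replicate 1 and 5.24 in replicate 2. The next, chr5:135879921-135880140, at -7889 and intergenic, read 7.54 and 2.77. The first of these holds a perfect heat shock element at chr5:135904154-135904166, shown in capitals on the plus strand. Footprints covered 6 of its 13 bases in replicate 1 and all 13 in replicate 2.
Hspb1 distal: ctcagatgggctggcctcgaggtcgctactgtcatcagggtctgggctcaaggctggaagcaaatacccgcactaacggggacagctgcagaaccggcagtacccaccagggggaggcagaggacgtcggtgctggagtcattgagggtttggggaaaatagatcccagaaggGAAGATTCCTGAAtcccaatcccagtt

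In the middle 300 bases of the distal regions, such an element stood in 2 of 239 near members, against 0.588% of all 44392 regions. In 22 of the 261 regions with one the element was touched by a footprint in both libraries, and the Hspb1 region was the only such region near a member. The other region near a member lay at -48434 from Dnajc10, with the start of Prdx6b nearer. E-boxes stood in 78 of 239 regions against 33.1%, GC boxes in 37 against 14.0% and MEF2 sites in 1 against 1.17%. That MEF2 site lies in an intergenic region centred 5551 bases after the start of Hspb7, a small heat shock protein of heart and muscle. The region (chr4:141426221-141426440, plus strand) had signals of 2.48 and 0.821. The site, in capitals, had no footprint over it in either library.
Hspb7 distal: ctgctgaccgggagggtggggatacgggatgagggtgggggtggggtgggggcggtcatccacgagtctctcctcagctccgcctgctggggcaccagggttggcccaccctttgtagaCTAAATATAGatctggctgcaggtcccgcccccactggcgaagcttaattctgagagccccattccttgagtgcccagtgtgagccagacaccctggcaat

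Hspa8 had 10 distal regions, all with its start as the nearest, with signals from 0.613 to 1.68 in replicate 1 and from 0.505 to 2.42 in replicate 2. Their medians, 1.24 and 0.911, were close to those of all distal regions. Hspb8 had 9, of which 5 were nearest to its own start and 4 to that of Srrm4. Hspb7 had 9, of which 2 were nearest to it, and Dnajb12, a J-domain protein of the endoplasmic reticulum membrane, 9, of which 6 were. Dnajb13 had 8 although its promoter was closed; 7 of them were nearest to Ucp3, Ucp2 or Mrpl48, and 1, at 2.64 and 2.75, to Dnajb13 itself. The strongest region near any member, chr2:34802181-34802420 at 12.3 and 5.61, lies 30205 bases after the Hspa5 start and nearer to that of Rabepk. No measurement here links a region to a gene other than distance.

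**Figure D5:**
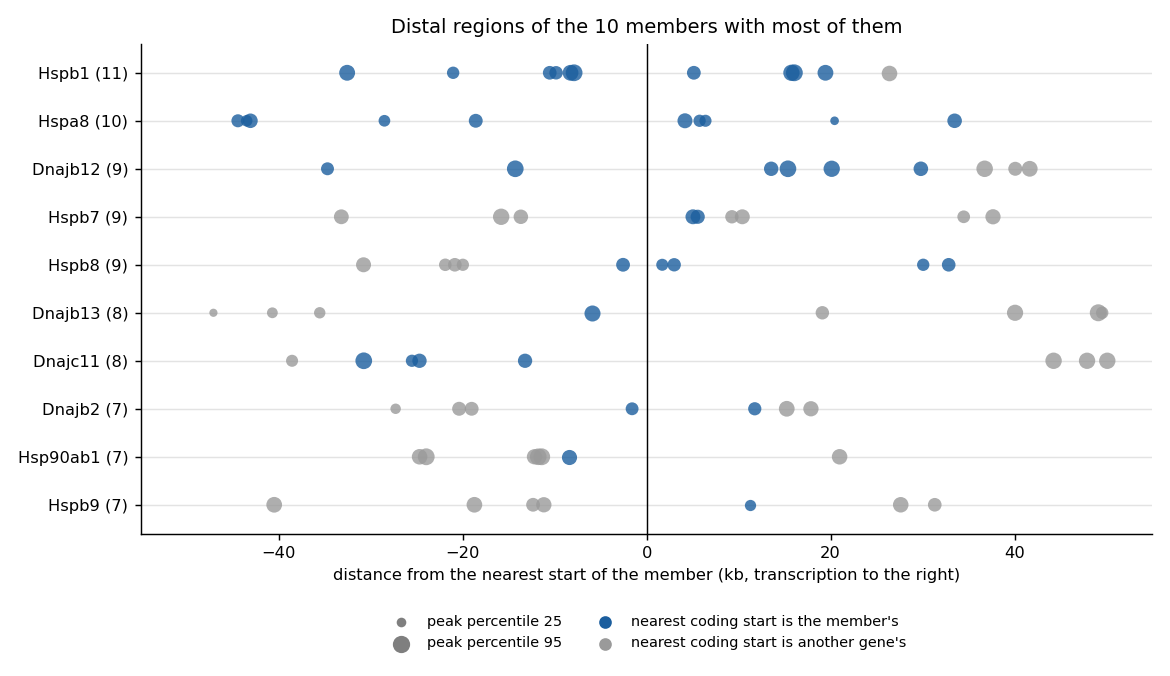
Distal regions (points) of the 10 members with most of them, by distance in kb from the nearest start of the member; larger points have a higher percentile among all peaks, blue points have the member's start as the nearest coding start and grey points that of another gene. All but 1 of the 11 Hspb1 points and all 10 of Hspa8 are blue, and 7 of the 8 of Dnajb13 are grey.

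Promoters of the rest of the chaperone machinery were nearly all open as well. Of 64 further genes (stress regulators, co-chaperones, the cytosolic chaperonin and prefoldin, organelle and muscle chaperones), 63 had a promoter peak in both libraries against 61.7% of all genes, with a median percentile of 86.5. Cryaa, the lens alpha A-crystallin, was closed. All 8 regulators were open: Ddit3, which encodes CHOP, read 25.2 and 10.2, Xbp1 14.9 and 7.41, Hsf1 13.2 and 5.21 and Hsf2 13.5 and 6.13, while Hsf4, a factor of the lens, read 2.10 and 1.09. Bag3, the partner of Hspb8, read 15.3 and 6.53. Unc45b, the myosin chaperone, read 4.44 and 1.07 and its partner Smyd1 1.15 and 0.523. Proteasome subunits were open in 37 of 40 cases and cytosolic ribosomal proteins in 79 of 80, with median percentiles of 77.5 and 80.9. The members' median of 79.3 lay between those 2 values, and no test was made of the differences.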

How the data were processed

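DNase-seq libraries of 2 gastrocnemius samples were read as peak lists, footprint lists and a track of FDR values, on mm10 per the labels. The peak caller, the aligner and the scaling of the signal are not stated in the material used here. The deposited peak signal (column 7) was used as given, from the shorter list of each library unless stated. The deposited FDR values are p-values adjusted by the authors for enriched cutting at a base, so low values mark open DNA. In the deposited footprint lists the score column is constant, so footprints were used by position only.

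Genes and starts came from the GENCODE M21 basic annotation, without mitochondrial genes. A promoter was 1 kb to either side of any start, an overlap of 1 base sufficed, and percentiles were taken over 21911 genes within each library. Distal regions were peaks of both libraries, merged, outside all promoter windows. Promoter sequences came from RefSeq (GRCm38.p6), and motifs were matched on both strands. Rps6k kinases were left out of the ribosomal list, and Cct6a was not found under its symbol. Scripts used Python 3.11.15, pandas 2.3.3, pysam 0.24.0, samtools 1.23.1 and bedtools, and were tested on simulated data.

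With 1 group, no test was made. Precision is limited by 2 libraries of unknown depth. The members, lists and role classes were chosen with earlier results of these data known. Genes named were those with no promoter peak, the 4 highest percentiles of each family, the 10 with most distal regions, the 3 highest and 3 lowest library ratios, members with a heat shock element touched by a footprint, and a list of central members; others named were chosen after their values were seen. Other windows, the longer peak lists, a signal minimum, footprints wholly inside peaks, a mismatch in the element and leaving out each library were tried as alternatives.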

Additional observations from a re-analysis of the deposited data

How the results depend on the processing

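Of 86 alternative values for 16 results, 73 stayed within the limits set for a change and 13 moved. The limit was a set fold change for a count and the SD between the libraries for a median. Most alternatives were counts of open genes close to their full number, which could hardly pass that limit. The 73 are therefore no measure of robustness, and the values themselves are given below. The number of open members was 66 with a window of 250 bases, 69 with peaks of at least the median signal, and 70 with 2500 bases or with the longer lists, where 65.7% of all genes were open. The median percentile, 79.3, was 75.5 with the window of 250 bases and ranged from 77.4 to 78.8 with a library left out. The median number of distal regions, 3 (all genes 2), was 1 within 20 kb (all genes 1), 5.5 within 100 kb (4) and 5 in the longer lists (3), and ranged from 3.5 to 4 with a library left out (3). The median number of footprints, 9 (all genes 8), was 5.75 for footprints wholly inside a peak (5) and 6 with the window of 250 bases (6). Members with a heat shock element numbered 4 in the promoter table, 14 with at most 1 mismatch and 10 within 1 kb. Those with the element touched by a footprint in both libraries numbered 0, 3 with at most 1 mismatch (by 1 to 3 bases at the edge), 0 where the footprint had to cover all fixed bases, and from 0 to 1 with a library left out. No paired analysis was possible because there is 1 group. Depth is unknown, so an unseen peak or footprint may reflect the limit of a library.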
